A study of Mus musculus with 12 samples.

Results

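Thrombospondin 1 (*Thbs1*) and VEGF-A (*Vegfa*) transcripts were found together in a set of myeloid cells that were enriched from PyMT breast tumors on the integrin CD11c. The cells were chosen by their raw UMI counts, in which each unique molecular identifier (UMI) stands for 1 captured mRNA molecule. A cell of the set had at least 200 detected genes, at least 2 UMIs of *Thbs1*, at least 1 of *Vegfa* and at least 1 of *Csf1r*, the receptor that macrophages need for survival. It had no UMI of *Ly6c2* (classical monocytes), *Retnla*, *Lyve1* (resident-like macrophages) or *Epcam* (tumor epithelium), at most 1 of *S100a8* and *S100a9* together (neutrophils), and fewer than 2 of *Gpnmb* (lipid-associated macrophages). This gave 730 cells, called Thbs1 and Vegfa cells here, of 11639 cells of the CD11c-selected matrix and of 34445 in the series. They made up 6.27% of the CD11c-selected cells (95% CI 5.84 to 6.73) and 9.25% of the 7894 cells with a *Csf1r* UMI (8.62 to 9.91). The 3434 *Csf1r* cells without any UMI of *Thbs1* or *Vegfa* served as comparison cells, and 3730 *Csf1r* cells fell in neither group.

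PyMT mice express the polyoma middle T oncogene from the MMTV promoter, which is active in the mammary epithelium, and develop breast tumors spontaneously. The study took tumors from 2 genotypes, PyMT-PAR2 WT and PyMT-PAR2 G37I, on a B6 background, without further treatment. PAR2 is a receptor activated by cleavage, and its G37I form (of the gene *F2rl1*) resists the signaling of coagulation factor Xa (FXa). There were 3 biological replicates per genotype of CD11c-selected cells, from tumors at a late stage, and 3 per genotype of CD4/CD8-selected cells, from tumors of middle size, which were frozen, thawed and run on the 10x Genomics platform. The 6 CD11c samples share 1 matrix whose barcodes carry no sample name, so it was treated as 1 sample, the genotypes were not compared, and no p-value or replicate error is given. Intervals at 95% are exact Poisson ones for levels and Clopper-Pearson ones for shares, and hold counting error only.

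Thrombospondin 1 is a secreted matrix protein that binds CD36 and CD47, inhibits new vessel growth and can release TGF-beta from its latent form. VEGF-A is the main growth factor of blood vessels, and hypoxia is its best-known inducer. Macrophages of tumors arise largely from blood monocytes, and their programs range from inflammatory and hypoxic to matrix-building and resident-like ones.

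The barcodes of the matrix run through the alphabet 6 times, and these 6 barcode runs are given as unlabelled values, by the lowest, the median and the highest. Their shares of Thbs1 and Vegfa cells among *Csf1r* cells ranged from 4.64% to 14.4%. One run stood apart, with 360 cells, a median of 31161.5 UMIs per cell and 15 of the 730 cells. Of the barcodes, 76 occurred in more than 1 run, 9 of the Thbs1 and Vegfa cells carried such a barcode, and none of these was shared by 2 of them. The Thbs1 and Vegfa cells were deeper (median 10165.5 UMIs, 8643170 in all) than the comparison cells (6644 and 29522899). The cell with the fewest UMIs in the set had 785. Levels are UMIs of a gene summed over cells per 1000000 UMIs of the group (CPM), and a fold is the ratio of these sums, with 1 UMI added to each.

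The 2 genes that chose the cells are a description only. *Thbs1* lies on chromosome 2 (chr2:118111876-118127133, plus strand, GRCm38) and *Vegfa* on chromosome 17 (chr17:46016993-46032369, minus strand). The median Thbs1 and Vegfa cell had 11 *Thbs1* UMIs, with an upper quartile of 25 and a maximum of 132, and 4 *Vegfa* UMIs, with an upper quartile of 8 and a maximum of 39. At the edge of the rule, 64 cells had exactly 2 *Thbs1* UMIs and 142 exactly 1 *Vegfa* UMI. Just outside it, 147 cells met all other conditions but had 1 *Thbs1* UMI. The other conditions removed 868 of 1598 *Csf1r* cells with enough *Thbs1* and *Vegfa*, and the largest single losses came from *Retnla* (366), *Gpnmb* (263) and *Ly6c2* (218).

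*Csf1r* cells that met every one of the exclusions, 4734 in all, were put into 4 groups by their *Thbs1* and *Vegfa* UMIs. Cells with a single *Thbs1* UMI are set aside, both the 147 with a *Vegfa* UMI and those without one. *Thbs1* only stands for at least 2 *Thbs1* UMIs and none of *Vegfa*. *Vegfa* only stands for at least 1 *Vegfa* UMI and none of *Thbs1*. Besides the 730 cells with both, 349 cells had *Thbs1* only (median 8895 UMIs), 923 had *Vegfa* only (10182) and 2370 had neither (5285.5). Cells with neither were the shallowest, and at low depth a transcript can be missed. The part of this in the results of these groups was not tested. The thinned values given below are for Thbs1 and Vegfa cells, comparison cells and T cells only.

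The name proposed for these cells, monocyte-derived macrophages, was only partly matched by its markers. *Plac8*, a gene of classical monocytes, was at 101 CPM against 86.3 in the comparison cells (1.17-fold, 95% CI 1.08 to 1.27), and over the 6 runs it spread from 1.93 to 155 CPM against 54.8 to 132. These ranges overlapped, and *Plac8* was higher in 3 of 6 runs. *Ms4a4c*, which also marks monocytes, was at 135 against 79.4 CPM (1.71-fold, 1.59 to 1.83) and higher in 6 of 6 runs, from 56.0 to 182 CPM against 22.3 to 109. A UMI of either gene was found in 364 of 730 Thbs1 and Vegfa cells (49.9%) and in 1169 of 3434 comparison cells (34.0%). The chemokine receptor *Ccr2*, which brings monocytes out of the marrow, was 1.19-fold higher (319 against 268 CPM) and higher in 5 of 6 runs. In cells with 2 or more *Ly6c2* UMIs, which the rule left out, *Plac8* stood at 795 CPM and *Ms4a4c* at 447. Macrophage identity genes summed to 34105 CPM against 35638 in comparison cells, with a median log2 fold of -0.17 (-0.06 over all genes). Of 13 such genes 3 were above 1-fold, as were 39.8% of the 8588 genes counted below. *C1qa*, a complement component, was at 2911 against 3830 CPM, *Apoe* at 14850 against 15238, and *Lyz2*, encoding lysozyme, at 6272 against 6261. Dendritic cell genes, a list that includes *Itgax* (CD11c itself), summed to 539 CPM against 506 in comparison cells. Of the 730 cells, 444 held 2 or more UMIs of this list. The cells are therefore named by the transcripts that chose them.

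Of 8588 genes detected in at least 5% of either group and not used by the rule, 112 were at least 2-fold higher (1.3%) and 186 at most 0.5-fold (2.17%) in Thbs1 and Vegfa cells. Among genes detected in 25% of either group, the 20 with the highest folds are described first. *Ptgs2*, encoding the prostaglandin synthase COX-2, led them with 456 CPM (442 to 471) against 94.8 (91.3 to 98.4), or 4.81-fold. By run it was at 358, 466 and 634 CPM (lowest, median, highest) in Thbs1 and Vegfa cells and at 55.8, 91.0 and 142 in comparison cells, so that the ranges did not overlap. *Il1b*, the most abundant of the 20 and the gene of the inflammatory cytokine IL-1beta, was at 3475 against 1197 CPM (2.90-fold). Its runs lay at 2438, 3376 and 4305 CPM against 657, 1088 and 1781. Its decoy receptor *Il1r2* (2.98-fold) and the receptor antagonist *Il1rn* (2.06-fold), both of which restrain IL-1, were also higher.

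Others of the 20 are given by what they are known to do. *Adora2b*, the low-affinity adenosine receptor that raises cAMP, was at 65.6, 76.8 and 88.2 CPM by run against 17.7, 24.0 and 37.4 (3.14-fold). *Crem*, a cAMP-responsive transcription factor, was 2.80-fold higher (440 against 157 CPM), and *Ramp3*, which helps build receptors for adrenomedullin, 3.22-fold (110 against 34.0). *Vdr*, the vitamin D receptor, was 4.53-fold higher, at 69.5 to 99.0 CPM against 13.4 to 22.6. Myeloid receptors and regulators were *Trem1*, which amplifies inflammation (3.93-fold, 51.6 against 13.1 CPM), *Clec4e*, the receptor Mincle for glycolipids (2.50-fold, 169 against 67.6 CPM), and *Mefv*, the gene of pyrin (3.35-fold). Metabolic genes were *Dgat1*, which makes triglycerides (3.96-fold, 140 against 35.3 CPM), and *Slc7a11*, the cystine importer (2.61-fold).

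All 20 genes were higher in 6 of 6 runs, which 8.86% of the 8588 genes were, and in 18 of the 20 the runs of both groups did not overlap (1.9% of genes). *Gab1* and *Flrt3* were the exceptions. The runs hold the same cells as the pooled fold that ranked the genes. A gene also entered the 20 only if detected in at least 25% of the Thbs1 and Vegfa cells, the group in which it was high. The 8588 genes passed at 5% of either group. Shares of all genes, here and below, are thus from an unlike set and give no expectation for the 20. The 20 genes were also at least 2-fold higher than in the 2370 cells with neither transcript under the same conditions, where 1.54% of 8506 genes were. These 2370 cells are part of the comparison cells that ranked the genes, so this too is a description.

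**Figure D1:**
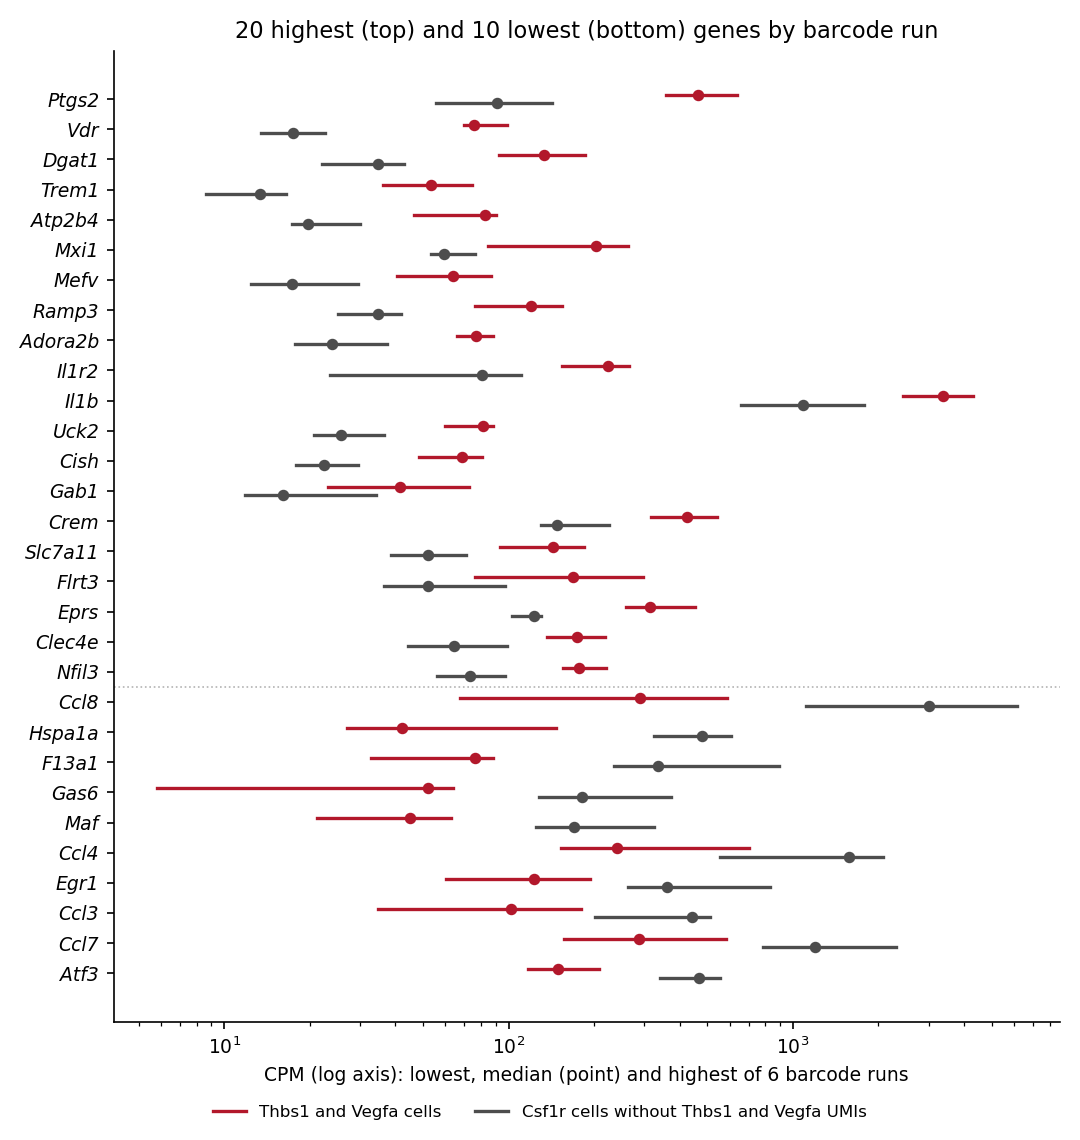
CPM on a log axis of the 20 genes highest and the 10 lowest in Thbs1 and Vegfa cells (red) and in comparison cells (grey). Lines run from the lowest to the highest of 6 barcode runs and points are medians. The red and grey lines do not overlap except for *Gab1*, *Flrt3* and *Ccl4*.

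Depth was held equal by thinning each cell to 3000 UMIs, which kept 688 Thbs1 and Vegfa cells and 2465 comparison cells and left out 42 and 969. *Ptgs2* was then found in 36.6% of Thbs1 and Vegfa cells (33.0 to 40.4) and in 12.7% of comparison cells (11.4 to 14.1), against 50.3% and 16.4% before thinning. In 38 T cells thinned the same way, which should lack it, the share was 2.63%. *Il1b* was found in 83.0% against 52.0% (18.4% of T cells) and *Adora2b* in 20.8% against 6.45% (0% of T cells, which allows up to 9.25%). *Crem*, *Dgat1*, *Eprs*, *Atp2b4* and *Cish* were found in a larger share of T cells than of Thbs1 and Vegfa cells, so their shares are not read as particular to either. Neutrophils of the same matrix, 78 cells, had 12 of the 20 genes at a higher CPM than the Thbs1 and Vegfa cells, where 52.8% of all genes were higher. Their own list of marker genes summed to 30.5 CPM in Thbs1 and Vegfa cells, 32.4 in comparison cells and 4124 in neutrophils, with 4 of 8 at 0 in the first. *Ly6c2* cells were higher for 5 of the 20, against 56.4% of all genes.

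The 10 lowest genes included 4 chemokines. *Ccl8*, a chemokine of the monocyte chemoattractant family, was at 347 CPM against 2783 (0.12-fold), with runs at 67.6, 289 and 588 CPM against 1111, 3004 and 6130.5. *Hspa1a*, an inducible heat shock protein, was at 70.7 against 468 CPM, *Maf*, a transcription factor of mature macrophages, at 46.2 against 189 CPM, and *Gas6*, a ligand for receptors that clear dead cells, at 50.9 against 212 CPM. *F13a1*, the A chain of coagulation factor XIII, was at 73.1 against 416 CPM. *Ccl3*, *Ccl4*, *Ccl7*, *Egr1* and *Atf3* completed the 10, at 0.28- to 0.33-fold. All 10 were lower in 6 of 6 runs (11.9% of genes) and 9 did not overlap (3.85%), *Ccl4* being the exception. Against cells with neither transcript under the same conditions 9 of the 10 were at or under 0.5-fold (1.58% of genes), and *Ccl7* was at 0.51-fold. *F13a1* was at 0.48-fold and *Ccl8* at 0.27-fold there, nearer to 1 than against the comparison cells. The runs and the cells with neither transcript belong to the cells that ranked the 10 genes, so these counts describe them and give no separate support. The 10 were also held to detection in at least 25% of the comparison cells, the group in which they were high. The genes behind the shares in brackets were not held to this.

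Lists of genes are described by the median log2 fold of their members that the rule did not use, beside the median over all genes, which was -0.06. Nothing particular to a list is read from them. In the list of classical monocyte genes the median was 0.24 over 10 genes, of which *Cd14*, the co-receptor for bacterial lipopolysaccharide (2.24-fold, 3044 against 1359 CPM), and *Clec4e* were 2-fold higher and *F13a1* lower. The value moved from 0.07 without barcode run 5 to 0.55 without run 2. It was 0.57 against cells with neither transcript under the same conditions. Nonclassical monocyte genes had a median of -0.55, with 2 of 9 above 1-fold (39.8% of all genes were).

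**Figure D2:**
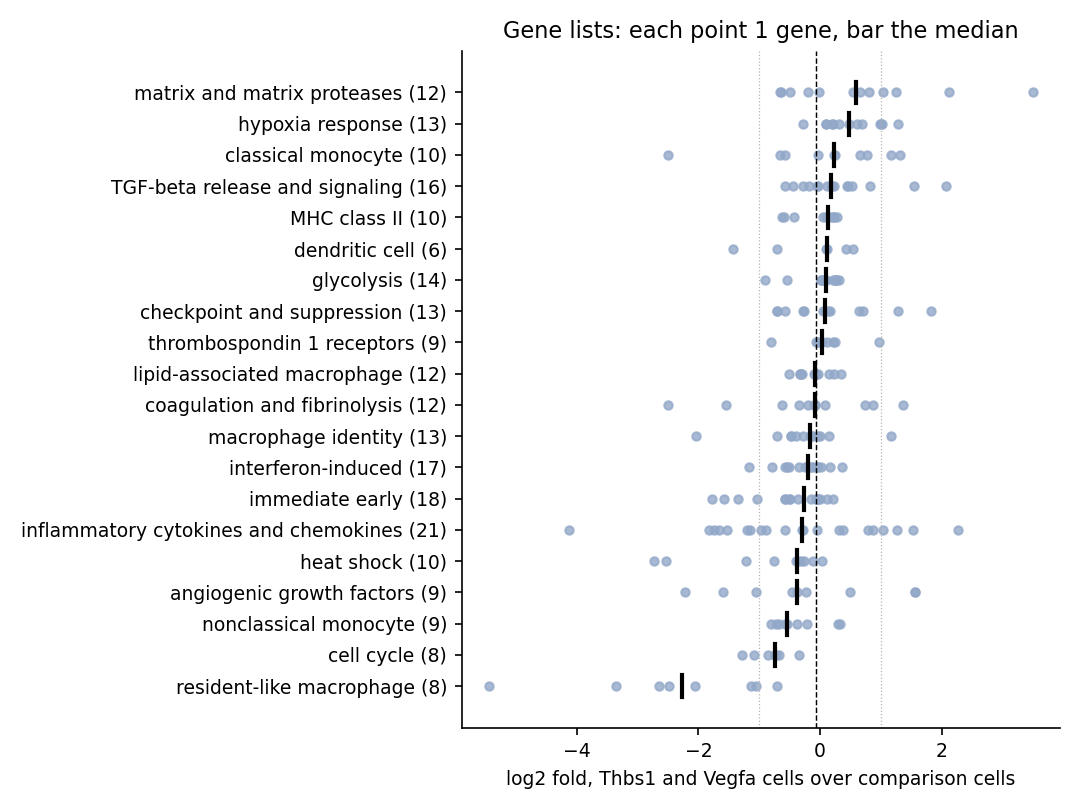
Log2 fold of Thbs1 and Vegfa cells over comparison cells for each gene (point) of 20 lists with at least 5 genes, with the median of each list as a bar and the median of all genes as a dashed line. Dotted lines mark 2-fold up and down. Matrix genes (median 0.60) and hypoxia response genes (0.48) lie highest and resident-like macrophage genes (-2.27) lowest.

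Hypoxia response genes, the targets of hypoxia-inducible factors, had a median of 0.48 over 13 genes, and 12 of these were above 1-fold, as 39.8% of all genes were. *Slc16a3*, the lactate exporter MCT4, was 2.45-fold higher, with runs at 92.7, 121 and 182 CPM against 37.1, 48.4 and 73.8. *Ndrg1* (2.03-fold) and *Hilpda*, which protects lipid droplets (2.00-fold, 169 against 84.3 CPM), were just at 2-fold. *Hilpda* was at 1.79-fold without barcode run 5, and *Ndrg1* at 1.80-fold with at least 1 *Thbs1* UMI and at 1.67-fold on UMIs that did not choose the cells. *Slc2a1*, the glucose transporter GLUT1, was at 82.0 against 41.5 CPM (1.98-fold). *Hif1a* itself was at 1.61-fold. Genes of glycolysis had a median of 0.09 and none was 2-fold higher (*Ldha* 1.19-fold, *Pgk1* 1.24-fold).

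The cells with only 1 of both transcripts split these lists. Over cells with neither, the 13 hypoxia response genes had a median log2 fold of 0.11 in cells with *Thbs1* only, 0.44 in cells with both and 0.65 in cells with *Vegfa* only. None was 2-fold higher in cells with *Thbs1* only (1.14% of genes were) and 3 were in cells with both (1.54%). In cells with *Vegfa* only 5 were (0.521%), and 0.544% of genes were at or under 0.5-fold. *Bnip3*, a mitophagy gene, was at 0.78-, 1.51- and 3.10-fold in this order, *Slc2a1* at 1.08-, 1.90- and 2.18-fold, and *Hilpda* at 1.65-, 2.52- and 2.96-fold. Glycolysis genes took the same order, at -0.07, 0.24 and 0.49, and 13 of 14 were higher in cells with *Vegfa* only than in cells with *Thbs1* only. Over all 8819 genes compared, 52.5% were.

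Classical monocyte genes did not follow this order. Their median was 0.48 with *Thbs1* only, where 10 of 10 were above 1-fold (48.4% of genes), 0.57 with both and -0.25 with *Vegfa* only, and 9 of 10 were higher with *Thbs1* only than with *Vegfa* only. *Clec4e* was at 4.21-, 3.60- and 1.82-fold with *Thbs1* only, both, and *Vegfa* only, and *Ccr2* at 1.53-, 1.50- and 0.61-fold. *Fn1*, the gene of fibronectin, was at 2.71-, 3.11- and 0.85-fold. Of the 20 highest genes, 14 were 2-fold higher than in cells with neither in cells with *Thbs1* only and 4 in cells with *Vegfa* only (*Ptgs2*, *Trem1*, *Ramp3* and *Il1r2*). *Gab1*, an adaptor of growth factor receptors, was at 3.21-fold with *Thbs1* only and at 0.97-fold with *Vegfa* only. *Il1r2* was the reverse, at 1.19- and 2.89-fold. *Mmp12*, the macrophage elastase, was at 0.36-fold with *Thbs1* only, 1.01-fold with both and 2.88-fold with *Vegfa* only. Each group shares the cells with neither transcript as its base, so the folds are set side by side and no correlation is given.

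**Figure D3:**
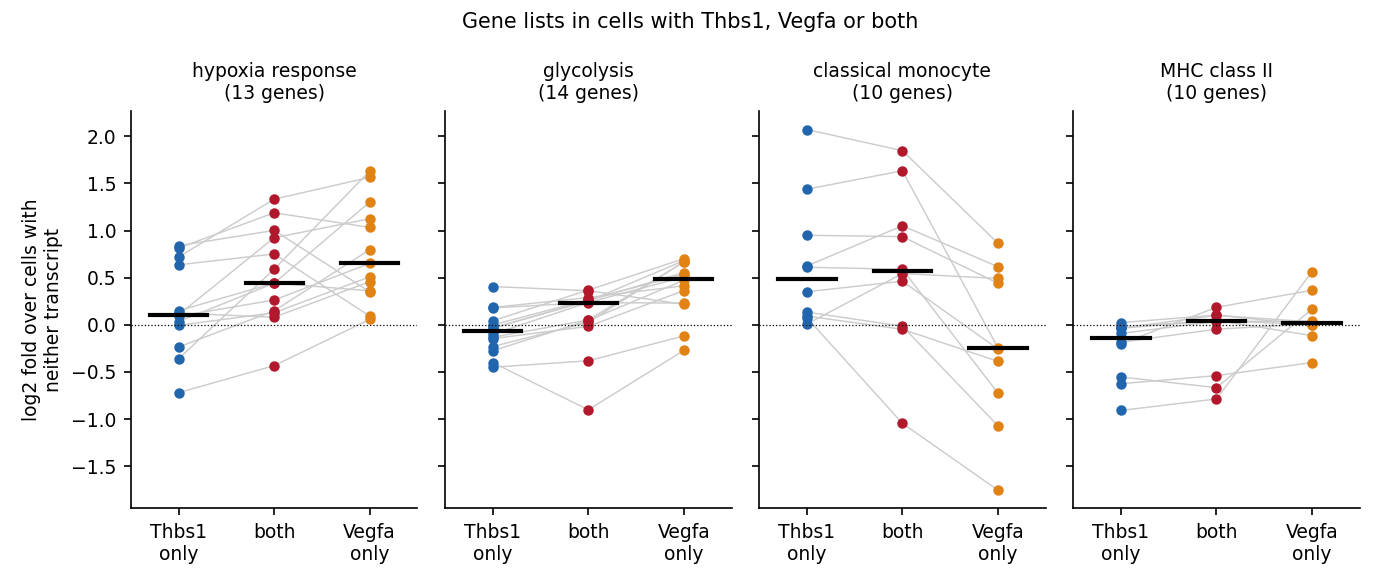
Log2 fold over cells with neither transcript in cells with *Thbs1* only (blue), with both (red) and with *Vegfa* only (orange), for the genes of 4 lists. Points are genes, grey lines join the same gene and black bars are medians. Hypoxia response genes lie at 0.11, 0.44 and 0.65, and classical monocyte genes at 0.48, 0.57 and -0.25.

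Hypoxia-inducible factors bind the core letters ACGTG, and promoters of RefSeq (build GRCm38.p6, 250 bases before to 50 after a start) were searched for them on both strands. At least 1 promoter of 13 of 16 matched hypoxia response genes, *Vegfa* counted, held the core, against 31.1% of 6846 matched tested genes and 19.6% of 32851 promoters. The 16 were not held to the detection filter of the tested genes. They were listed as known targets of these factors, so the share describes the list and not these cells. Of 19 matched genes among the 20 highest and *Thbs1* and *Vegfa*, 7 did. TGACG, the short site of cAMP-responsive factors, was in 6 of these 19, against 38.3% of tested genes. Shown are the windows of 3 hypoxia response genes among the 10 highest of cells with *Vegfa* only, with the core in capitals. *Hilpda* is at chr6:29272376-29272675, *Slc16a3* at chr11:120948817-120949116 and *Slc2a1* at chr4:119108495-119108794, all on the plus strand, 5′ to 3′:

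Hilpda: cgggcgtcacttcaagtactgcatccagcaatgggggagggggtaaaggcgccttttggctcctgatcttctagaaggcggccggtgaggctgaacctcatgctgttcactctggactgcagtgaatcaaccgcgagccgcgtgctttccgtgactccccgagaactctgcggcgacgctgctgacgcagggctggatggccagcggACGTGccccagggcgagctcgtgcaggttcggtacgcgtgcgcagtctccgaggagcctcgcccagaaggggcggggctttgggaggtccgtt

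Slc16a3: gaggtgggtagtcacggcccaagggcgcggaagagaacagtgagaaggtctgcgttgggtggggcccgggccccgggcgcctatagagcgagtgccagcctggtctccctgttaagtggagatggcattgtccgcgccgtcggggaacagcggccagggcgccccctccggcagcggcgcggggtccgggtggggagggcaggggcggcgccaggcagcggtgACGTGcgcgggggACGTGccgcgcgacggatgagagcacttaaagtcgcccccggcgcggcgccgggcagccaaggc

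Slc2a1: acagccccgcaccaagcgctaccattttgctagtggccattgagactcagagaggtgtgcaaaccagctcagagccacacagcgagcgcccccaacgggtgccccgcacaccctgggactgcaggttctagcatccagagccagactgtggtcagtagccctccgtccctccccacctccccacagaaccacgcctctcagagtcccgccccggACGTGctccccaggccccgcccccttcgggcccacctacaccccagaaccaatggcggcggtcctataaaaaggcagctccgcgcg

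Another *Hilpda* window, at chr6:29272238-29272537, held no core. The core stood 43 bases before the start in the *Hilpda* window shown above, 27 and 14 bases before it in *Slc16a3* and 36 before it in *Slc2a1*. These are matches of letters in a window and were not tested as sites. The more upstream of the *Vegfa* windows held none, and the second held 1.

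Genes of matrix and matrix proteases had the highest list median, 0.60 over 12 genes, with 4 at 2-fold or more (1.3% of all genes were). *Tgm2*, which crosslinks matrix proteins, was 2.39-fold higher (196 against 82.2 CPM) and *Mmp19*, a matrix protease, 2.05-fold (189 against 92.3 CPM), or 1.82-fold without barcode run 6. *Sparc* (11.3-fold) and *Timp1*, a protease inhibitor (4.35-fold), moved with fibroblast transcripts. Fibroblast markers summed to 669.8 CPM in Thbs1 and Vegfa cells, from 1.93 to 2400 by run, against 13.2 in comparison cells, with none of 7 at 0. Only 17 cells had 2 or more of these UMIs. Without these 17 cells *Sparc* was at 3.96-fold and *Timp1* at 2.93-fold, while *Ptgs2* was at 4.87-fold, *Tgm2* at 2.41-fold and *Fn1* at 1.53-fold.

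Partners of thrombospondin 1 differed among themselves. *Lrp1*, which takes up thrombospondin 1, was at 285 against 145 CPM (1.96-fold, 1.87 to 2.06), with runs from 224 to 303 against 124 to 187. *Cd47*, the receptor that also signals against phagocytosis, was at 1.19-fold, and *Cd36*, the receptor for its antiangiogenic effect, at 0.57-fold. Among genes of TGF-beta release, *Lrrc32* (GARP, which anchors latent TGF-beta) was at 14.9 against 3.56 CPM (4.19-fold) and *Tgfb3* at 21.2 against 7.25 CPM (2.92-fold), both at low levels. *Tgfb1*, more abundant, was at 282 against 240 CPM (1.18-fold, higher in 6 of 6 runs). The receptors *Tgfbr1* (0.83-fold) and *Tgfbr2* (0.67-fold) were not higher. *Nrros*, the myeloid anchor of latent TGF-beta, was at 1.13-fold.

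Angiogenic growth factors other than *Vegfa* did not move together. *Pgf*, a VEGF relative that binds VEGF receptor 1, was at 37.02 against 12.6 CPM (2.94-fold) and at 1.97-fold without barcode run 5. *Areg*, an EGF receptor ligand, was at 103 against 34.7 CPM (2.96-fold) and higher in 5 of 6 runs. *Hbegf*, another EGF receptor ligand, was at 19.3 against 90.1 CPM (0.22-fold), and *Pdgfc* (0.33-fold) and *Igf1* (0.48-fold) were also at or under 0.5-fold. Against cells with neither transcript under the same conditions, *Pdgfc* was at 0.52-fold and *Igf1* at 0.71-fold. The list median was -0.39 over 9 genes.

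Coagulation genes bear on the question of the study, FXa signaling. *F10*, encoding factor X, was at 54.0 against 20.97 CPM (2.58-fold, 2.28 to 2.91), with runs at 21.2, 60.3 and 86.3 CPM against 13.8, 17.1 and 38.6. These ranges overlapped, and *F10* was higher in 5 of 6 runs. Over cells with neither transcript it was at 4.45-fold with *Thbs1* only, 5.29-fold with both and 1.35-fold with *Vegfa* only. *F7*, encoding the protease that activates factor X, was near the comparison cells (10.8 against 11.6 CPM) but at 4.11-fold over cells with neither transcript under the same conditions. *Procr*, the endothelial protein C receptor EPCR, was at 1.67-fold and *Plaur*, the urokinase receptor, at 487 against 265 CPM (1.84-fold). Urokinase itself (*Plau*) was lower, at 34.6 against 102 CPM (0.34-fold). The platelet list was at 2.20 against 2.24 CPM, with 4 of 8 genes at 0.

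Inflammatory cytokines and chemokines were divided, with 4 of 21 genes 2-fold higher (1.3% of all genes) and 7 at or under 0.5-fold (2.17%). The 4 were *Ptgs2*, *Il1b*, *Il1rn* and *Il6*, the last at 36.6 against 15.2 CPM (2.40-fold), or 1.73-fold after thinning. The 7 were *Tnf* (117 against 261 CPM, 0.45-fold) and the chemokines *Ccl2*, *Ccl3*, *Ccl4*, *Ccl7*, *Ccl12* and *Ccl24*. Against cells with neither transcript under the same conditions, *Ccl2* was at 0.54-fold. *Osm*, a cytokine of the IL-6 family, was at 1.84-fold, and *Il10*, which restrains inflammation, at 0.67-fold. Interferon-induced genes had a median of -0.19, with 1 of 17 at or under 0.5-fold (2.17% of all genes). This was *Cxcl9*, which draws T cells, at 21.9 against 49.5 CPM (0.44-fold). It was at 0.64-fold after thinning and at 0.51-fold against comparison cells weighted to the same depth.

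In the list of checkpoint and suppression genes, *Cd80*, a ligand of CD28 and CTLA-4, was at 82.0 against 33.9 CPM (2.42-fold) and *Cd274* (PD-L1) at 50.3 against 32.3 CPM (1.56-fold), both higher in 6 of 6 runs. *Arg1*, which breaks down arginine, was at 3.54-fold but was found in 5.21% of the cells, spread from 1.93 to 233 CPM by run and was at 1.53-fold without barcode run 6. *Lilrb4a*, an inhibitory receptor, was at 0.83-fold. MHC class II genes took 4.48% of UMIs in the median Thbs1 and Vegfa cell and 3.52% in the median comparison cell, and none of the 10 was 2-fold different.

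Resident-like macrophage genes had a median of -2.27, with 7 of 8 at or under 0.5-fold (2.17% of all genes were). *Cd209f*, a C-type lectin, was at 2.08 against 96.0 CPM, *Cd163*, the scavenger receptor for hemoglobin, at 4.86 against 50.9 CPM, and *Folr2*, a folate receptor, at 36.4 against 204 CPM. *Mrc1*, the mannose receptor CD206, was at 419 against 687 CPM (0.61-fold). The rule left out cells with *Lyve1* or *Retnla*, and comparison cells were not held to it. Against cells held to it, the list median was -0.75 over 6 genes, with 3 at or under 0.5-fold (1.58% of genes), and *Mrc1* was at 0.92-fold. Cell cycle genes (median -0.74) and heat shock genes (-0.38) were also low, as with *Birc5*, which cells need to divide, at 0.47-fold.

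Within the Thbs1 and Vegfa cells, the levels of some genes differed between groups split by *Thbs1*, a gene that the rule used. Cells were split by *Thbs1* CPM into 3 groups of 244, 243 and 243, which also ordered them by depth, with medians of 13388, 9714 and 7302 UMIs. *Plac8* was at 53.1 CPM (46.1 to 60.8), 93.6 (82.3 to 106) and 204 (185 to 224) from the low to the high group. *Ccr2* was at 217, 378 and 435 CPM, *Clec4e* at 105, 141 and 329, and *Gab1* at 27.0, 42.9 and 99.0. *Ptgs2* was near equal in the lower groups (362 and 388 CPM) and at 726 in the high one. *Vegfa*, which the rule required, was at 342, 515 and 739 CPM, and nothing is read from it, since a required UMI weighs more in a shallower cell. Others went down, as with *Ccl4* at 618, 285 and 170 CPM and *C1qa* at 3403, 2670 and 2281. *Ramp3* stayed between 105 and 114 CPM. The parts of depth and of the mix of cells in these values were not tested, and the intervals hold counting error only.

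**Figure D4:**
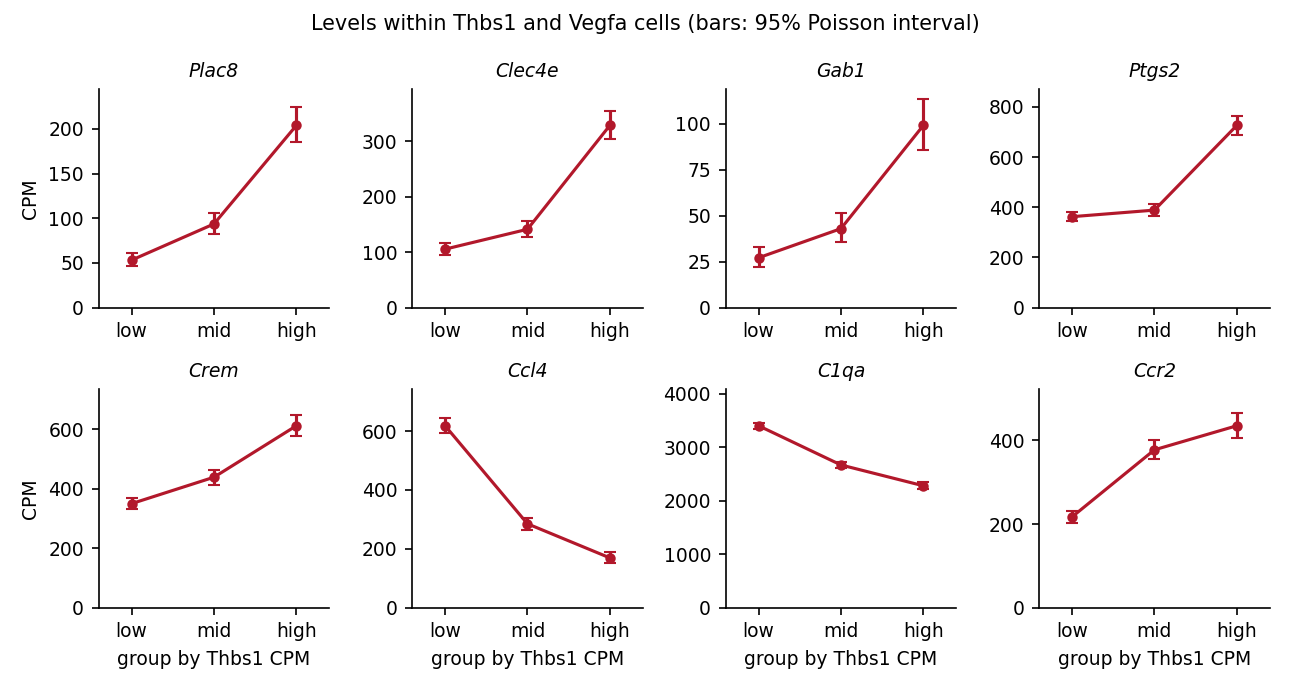
CPM of 8 genes in the Thbs1 and Vegfa cells, split into 3 groups by *Thbs1* CPM, with exact 95% Poisson intervals, on axes that start at 0. *Plac8* is at 53.1, 93.6 and 204 CPM, and *Ccl4* at 618, 285 and 170.

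When all *Csf1r* cells were clustered without the genes of the rule, Thbs1 and Vegfa cells appeared in 21 of 22 clusters, so that they are not a single cluster. Clusters 4 and 7 held 230 and 138 of them, 50.4% together, and 6.76% of the comparison cells. Cluster 4 was led by *Ocstamp*, *Il1r2* and *Dusp2*, and cluster 7 by *Tnfsf14*, *Il10* and *Plac8*. Cluster 11 was led by *Cd209a*, *Pgf* and *Ccr7*, genes found in dendritic cells among others, with *Zbtb46* and *Ramp3* also among its leading genes. It held 48 Thbs1 and Vegfa cells, 16.4% of its cells. In the Thbs1 and Vegfa cells of clusters 4 and 7, *Thbs1* was at 2327 CPM (2263 to 2392) and 2503 (2415 to 2593), and *Slc2a1* at 96.1 (83.5 to 110) and 96.6 (80.0 to 116). *Ptgs2* was at 319 CPM (295 to 343) in those of cluster 4 and at 694 (648 to 743) in those of cluster 7, and *Vdr* at 107 and 57.3 CPM. The cluster with the highest *Thbs1*, at 5056 CPM, was led by neutrophil genes (*G0s2*, *Cxcr2*) and held 4 Thbs1 and Vegfa cells.

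The same rule found 54 cells in the CD4/CD8-selected matrix, where macrophages were not sought, against 440 comparison cells. Of the 20 highest genes, 19 were above 1-fold there (48.5% of genes) and 10 at least 2-fold (8.89%). Of the 10 lowest, 9 were below 1-fold (51.5%) and 8 at or under 0.5-fold (5.57%). The shares in brackets, here and below, are of genes not held to the detection filters of the 20 and the 10. *Adora2b* was at 3.73-fold, *Ptgs2* at 4.44-fold, *Vdr* at 2.78-fold and *Slc16a3* at 2.52-fold, while *Atp2b4* was at 0.99-fold and *Cd14* at 1.18-fold. Here 5 of the 54 cells had 2 or more fibroblast UMIs, and without them *Ptgs2* was at 2.56-fold, 20 of the 20 highest genes were above 1-fold (43.9%) and 13 at least 2-fold (3.66%). All of the 10 lowest were then below 1-fold (56.1%) and 9 at or under 0.5-fold (7.42%), with *Egr1* at 0.31-fold in place of 1.39-fold. *F10* was at 3.64-fold with these cells and at 4.33-fold without them. *Areg* (0.37-fold) and *Il6* (0.47-fold) went the other way than in CD11c-selected cells, and *Plac8* was at 0.98-fold, or 0.20-fold without the 5 cells.

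To see *Thbs1* and *Vegfa* themselves on UMIs that did not choose the cells, the UMIs of each cell were drawn at random into 2 equal sets, and the rule, with 1 *Thbs1* UMI, was applied to one set. In the other set, the 714 cells so chosen had *Thbs1* at 1432 CPM (1397 to 1467) against 17.9 (15.9 to 20.1) in 3290 comparison cells. *Vegfa* was at 531 CPM (510 to 552) against 27.7 (25.2 to 30.4). Both sets come from the same cells, so this bears on counting and not on other cells or animals.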

How the data were processed

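Single cells from PyMT breast tumors were measured in 6 CD11c-selected samples, 3 per genotype, and as many CD4/CD8-selected ones. The values deposited by the authors are raw UMI counts of genes in cells, with 1 matrix for each selection. The submitters' processing notes name Cell Ranger 3.0.2 and mm10, and a filter of the authors on cells was not given in the sources used here. Of 31053 symbols, 30431 (98.0%) matched GENCODE M21, used for positions on GRCm38. Barcodes with under 200 detected genes were dropped, and doublets were kept. The barcodes name no sample, so the planned edgeR test of genotypes was not run and no test is given. UMIs per barcode run ranged from 13314063 to 24231244.

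UMIs were summed over cells, with 1 UMI added to each sum for a fold. Genes counted were detected in at least 5% of either group. The named genes include the 20 highest by fold, detected in at least 25% of the Thbs1 and Vegfa cells. They also include the 10 lowest, detected in at least 25% of the comparison cells. The others are the 10 leading genes of cells with *Thbs1* only and with *Vegfa* only, and genes of fixed lists. Genes used by the rule were left out of these. The cells, lists and rules were chosen with earlier results of these data known. Clusters, named by number, came from the Leiden method (resolution 1, 15 neighbors, 30 components, 2000 variable genes; scanpy 1.11.5, leidenalg 0.10.2). Python 3.11.15, numpy 2.4.6, scipy 1.17.1 and pandas 2.3.3 were used. Neutrophils were cells with 10 or more *S100a8* and *S100a9* UMIs, and T cells had 2 or more of *Cd3e*, *Cd3d* and *Cd3g*, both without *Epcam*, *Krt8* and *Krt18* UMIs. The fold was tested on simulated data with 200 changed genes among 8141, where it recovered 100% of the 106 genes changed 4-fold. Alternatives varied the thresholds, the comparison cells, depth, the summary, the filters and the runs.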

Additional observations from a re-analysis of the deposited data

How the results depend on the processing

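The 20 highest genes were at least 2-fold higher and the 10 lowest below 1-fold under each of the 19 alternatives within the CD11c-selected matrix. These alternatives reuse the cells that ranked the genes. Of 65 named genes at or past 2-fold in either direction, 58 to 65 were so under these alternatives, and none changed side of 1-fold. The share of Thbs1 and Vegfa cells was 7.54% with at least 1 *Thbs1* UMI, 5.72% with at least 3, 5.05% with at least 2 *Vegfa* UMIs, and from 5.10% to 6.90% as barcode runs were left out. The 112 genes 2-fold higher became 181 with the mean of the CPM of single cells, 73 with the rule on one of 2 random sets of UMIs and the levels from the other, and 51 with genes detected in 25% of either group, where fewer were counted (4167). Without 1 run each they were 102 to 150. The 186 genes at or under 0.5-fold became 324 with that mean, 30 with the 25% filter, and 153 to 226 without 1 run each. The median log2 fold of classical monocyte genes was 0.66 with the 25% filter and 0.07 to 0.55 without 1 run each, and that of hypoxia response genes 0.38 to 0.65. The causes were not tested. In the CD4/CD8-selected matrix, genes on the other side of 1-fold were *Atp2b4* (0.99), *Egr1* (1.39), *Areg* (0.37), *Igf1* (1.14), *Pf4* (1.02) and *Il6* (0.47). Without cells of 2 or more fibroblast UMIs there, an alternative chosen after the data were seen, as was leaving such cells out of the CD11c-selected matrix, they were *Sparc* (0.11), *Lrrc32* (0.78), *Areg* (0.44), *Igf1* (1.15), *Folr2* (1.02), *Pf4* (1.21) and *Il6* (0.11). The doublet alternative left out the 527 cells with the highest 5% of scores, 51 Thbs1 and Vegfa cells among them. No paired analysis was possible because the cells are not tied to samples, and no alternative of the genotype comparison was run for the same reason. Counts per run of 15 to 278 Thbs1 and Vegfa cells limit the values by run.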
